A study of Homo sapiens with 4 samples.

Results

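The 10 genes described here encode enzymes that make and rearrange disulfide bonds in the endoplasmic reticulum (ER): the protein disulfide isomerases (PDIs) PDIA3, PDIA4, PDIA5, PDIA6, P4HB, TXNDC5, TXNDC11 and TMX1, and the oxidases ERO1A and ERO1B. They were chosen by name from the 60682 genes of the count table, with the values of this same comparison known, so their differences between groups are given as a description with no test. Transcripts were measured by RNA-seq of total RNA from JJN3, a human cell line established from multiple myeloma, a cancer of plasma cells, and grown in DMEM and IMDM with fetal bovine serum. The 2 groups were JJN3 cells transduced with a short hairpin RNA (shRNA) against the kinase WNK1 (shWNK1, 2 libraries) and the same line carrying the NS shRNA (NS, 2 libraries). All libraries thus came from the same line and from transduced cells. The labels do not say how many WNK1 hairpins were used, when RNA was taken, or whether the replicates were separate cultures, so the p-values below rest on a spread between libraries that could be purely technical.

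A PDI carries thioredoxin-like domains whose paired cysteines pass a disulfide to a folding protein, remove one, or exchange a wrong one for another. ERO1 oxidases reoxidise the PDI, chiefly P4HB, and pass the electrons to oxygen, which yields hydrogen peroxide. Plasma cells depend on this relay because antibodies and other secreted proteins are held together by disulfide bonds. Many genes of the relay are induced by the unfolded protein response (UPR), the signalling from a stressed ER to the nucleus.

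Sequencing gave 17491537 and 17392619 counts for NS and 16973521 and 20164122 counts for shWNK1. Levels below are counts scaled to a common library size (CPM), after scaling by TMM factors. The target of the hairpin, WNK1, had 288 and 245 CPM in the NS libraries and 18.6 and 19.6 CPM in the shWNK1 libraries, in the direction its label calls for. Replicates of a group were not duplicates: the chi-square per degree of freedom was 2.94 between the shWNK1 libraries and 5.76 between the NS libraries. All 9 plasma cell markers listed averaged at least 1 CPM, and their summed level was 1988 to 1996 CPM in shWNK1 and 2192 to 2212 CPM in NS libraries. Single markers differed in opposite directions: the syndecan SDC1 was at 209 and 225 CPM in NS and 81.99 and 91.4 CPM in shWNK1 libraries, MZB1 at 106 and 134 against 60.9 and 61.2 CPM, and SLAMF7 at 1.35 and 1.66 against 12.1 and 11.3 CPM. Of the markers of other cells, CD3D, CD4, LYZ, MPO, HBB, MS4A1, CD22 and COL1A2 had 0 counts in all 4 libraries. Others, such as CD8A, CSF1R and HBA1, had a few counts. The T and NK, myeloid and erythroid lists summed to at most 0.591, 0.821 and 0.887 CPM in any library. The epithelial markers EPCAM, CDH1 and KRT8 stood at 109 to 126, 4.53 to 6.03 and 0.176 to 1.26 CPM, and the endothelial marker PECAM1 at 1.29 to 3.41 CPM. The B-cell factor PAX5 was at 7.86 and 6.68 CPM in NS and 2.92 and 3.07 CPM in shWNK1 libraries. The part of these markers in the results below was not tested.

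Short sequences are shown for the members that hold a word or motif searched for here, since these are features the choice of genes did not use. The first is AGTATC, a 6-base word searched on the transcript strand of the longest annotated 3′ UTR of each gene (GENCODE 29, hg38). It was taken up because an earlier analysis of these libraries found it more often in genes that were lower in shWNK1 cells, so it gives no independent support to any difference below. Of the 10 members, 4 held it, once each, and so did WNK1. The windows are written 5′ to 3′ with the word in capitals.
PDIA4: aacaaacgacAGTATCtcggattcct
PDIA6: gtatgaagttAGTATCcacatcataa
TXNDC5: gctcattctcAGTATCtcattaactc
TMX1: ttagatttacAGTATCgtaatataca
WNK1: gtacactttgAGTATCtttttccaca

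These windows lie at chr7:149003689-149003714 on the minus strand for PDIA4, chr2:10783828-10783853 on the minus strand for PDIA6, chr6:7882305-7882330 on the minus strand for TXNDC5, chr14:51255890-51255915 on the plus strand for TMX1 and chr12:911194-911219 on the plus strand for WNK1. Among the 11880 tested genes with a 3′ UTR to search, 23.3% held the word. The share depends on length: of the 1601 genes whose 3′ UTR was within 25% of the 732 bases of PDIA4, 7.93% held it, and for the 3027 bases of TMX1 the share was 37.0%. The sequence of the hairpin is not given in the sources used here, and whether it matches the word was not tested. The word was not found in the 3′ UTRs of PDIA3, PDIA5, P4HB, TXNDC11, ERO1A or ERO1B.

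The second set comes from promoters, taken as 250 bases before to 50 after the start given by RefSeq (GRCh38.p14), which held 12 windows for 9 of the members. PDIA4, PDIA6 and TXNDC5 had 2 windows each, and PDIA3 had no entry. Both strands were searched for known stress elements. The ER stress element (ERSE), CCAAT and CCACG with 9 bases between them, was present in PDIA6 and ERO1B and in 0.0769% of 35116 such windows of all genes. The UPR element, searched as TGACGTGG or TGACGTGA, was present in TXNDC5 and TXNDC11 and in 1.18% of all windows. Capitals mark the matched bases, and the ERO1B match is on the opposite strand.
PDIA6: ggaCCAATgagccgcagCCACGgct
ERO1B: ccgCGTGGtcccgcctcATTGGccg
TXNDC5: ctggcggcTGACGTGGcgctcggc
TXNDC11: ggcgcggcTGACGTGGagcgtccg

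The windows are chr2:10812850-10812874 for PDIA6, chr1:236282180-236282204 for ERO1B, chr6:7910154-7910177 for TXNDC5 and chr16:11742837-11742860 for TXNDC11, all genes of the minus strand. Other elements searched, a second ERSE form (ATTGG and CCACG with 1 base between them, 0.0541% of all windows) and the amino acid response form TGATGNAAT or TGATGNAAC (1.77%), were in none of the 12 windows. The hypoxia element core ACGTG, which also lies within the UPR element, was in a window of 6 members (PDIA4, PDIA5, PDIA6, TXNDC5, TXNDC11 and ERO1A) and in 21.4% of all windows. For every element the members are counted as genes, 3 of them with 2 windows, while the shares are of windows, so they are not like units. The shares were not matched for base composition. The match of PDIA4 lay in the window of its outer start, 172 bases inside the gene as the count table draws it, and the ERSE of PDIA6 and the UPR element of TXNDC5 lay in the windows of their inner starts, 25192 and 711 bases inside.

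The isomerases were the bulk of the set. PDIA4, a PDI with an additional thioredoxin-like domain (chromosome 7, 149003062 to 149028662, minus strand, ENSG00000155660.11), stood at 608 and 613 CPM in the NS libraries and at 128 and 137 CPM in the shWNK1 libraries. The groups were far apart and the replicates close together. The level in shWNK1 cells was 21.7% of that in NS cells, 4.62-fold lower (log2 fold change -2.21, standard error (SE) 0.061), the 31st largest fall of 14864 tested genes. TMX1, 1.70-fold lower, came next among the members.

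P4HB (chromosome 17, 81843161 to 81860624, minus strand), the founding PDI and also the beta subunit of collagen prolyl 4-hydroxylase, was at 837 and 851 CPM in NS and at 675 and 679 CPM in shWNK1 libraries. The difference was small beside that of PDIA4 but larger than the gap between the replicates of either group (log2 -0.32, SE 0.055). PDIA6 (chromosome 2, 10783391 to 10837977, minus strand), an isomerase that works with the chaperone BiP, was at 599 and 629 CPM in NS and at 485 and 506 CPM in shWNK1 libraries (log2 -0.31, SE 0.057). For both genes the shWNK1 libraries lay below both NS libraries, at 80.2% and 80.7% of the NS level.

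PDIA3 (chromosome 15, 43746410 to 43773278, plus strand), which serves glycoproteins held by calnexin and calreticulin, was at 150 and 158 CPM in NS libraries. Its shWNK1 libraries had 99.1 and 111 CPM (log2 -0.55, SE 0.070). Its pseudogene PDIA3P1 was counted 208 and 139 times in NS and 103 and 138 times in shWNK1 libraries, and reads that fit both copies are lost to the mapping quality minimum. PDIA5 (chromosome 3, 123067025 to 123225227, plus strand), an isomerase reported to act on the stress sensor ATF6, was at 53.9 and 54.4 CPM in NS and 38.2 and 39.4 CPM in shWNK1 libraries (log2 -0.48, SE 0.091). Neither gene had overlapping groups.

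TXNDC5 (chromosome 6, 7881517 to 7910788, minus strand), a PDI abundant in antibody-secreting cells, was at 125 and 122 CPM in NS and 85.0 and 84.8 CPM in shWNK1 libraries (log2 -0.54, SE 0.070). Its replicates were the closest of the set in shWNK1 cells. Its level is understated, because 61.1% of its 4361 exon bases are also exons of another gene, nearly all of them of the readthrough gene BLOC1S5-TXNDC5. Fragments over both genes were not asked for in the counting, and BLOC1S5-TXNDC5 had 0 counts in every library. The remaining members shared less, from 0 bases in PDIA4, TMX1 and ERO1B to 25.2% in PDIA6.

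The membrane-bound members differed from each other. TMX1 (chromosome 14, 51240162 to 51257655, plus strand), a transmembrane PDI found where the ER touches mitochondria, was at 145 and 143 CPM in NS and 90.1 and 78.7 CPM in shWNK1 libraries. This was the second largest difference of the set (log2 -0.77, SE 0.073). TXNDC11 (chromosome 16, 11679080 to 11742878, minus strand), a transmembrane protein linked to ER-associated degradation, was at 142 and 126 CPM in NS and 117 and 121 CPM in shWNK1 libraries. Its NS replicates were the farthest apart of any tested member, and NS replicate 2 lay near the shWNK1 libraries (log2 -0.17, SE 0.070). The log2 value was -0.08 with NS replicate 1 left out and -0.25 with NS replicate 2 left out.

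The oxidases were represented by ERO1A. This widely expressed ERO1 (chromosome 14, 52639915 to 52695900, minus strand) was at 206 and 210 CPM in NS and 172 and 158 CPM in shWNK1 libraries (log2 -0.33, SE 0.063). ERO1B (chromosome 1, 236215101 to 236281958, minus strand), the form known from pancreas and other secretory tissue, had 13 and 1 counts in NS and 3 and 1 counts in shWNK1 libraries. These are about the counts that counting error alone allows (3 counts correspond to 0.146 to 0.177 CPM here), apart from the 13 in NS replicate 1, and ERO1B did not pass the low-count filter.

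**Figure D1:**
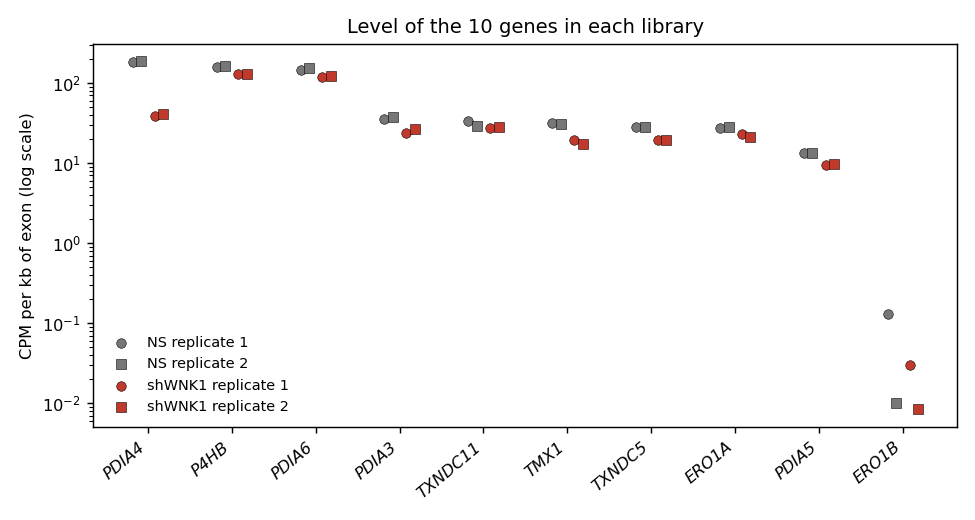
Level of each of the 10 genes in CPM per kb of exon (log axis), with each point a library and the genes ordered by their mean in NS cells. PDIA4 goes from 184 and 186 in NS to 38.7 and 41.5 in shWNK1 libraries, the other tested genes are lower by up to 1.70-fold (TMX1), and ERO1B lies far below the rest.

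With all members counted, 8 of the 9 tested were called lower (quasi-likelihood test of edgeR, with a Benjamini-Hochberg adjusted p under 0.05), 0 were called higher, TXNDC11 was not called and ERO1B was not tested. Of all 14864 tested genes, 20.2% were called lower and 18.5% higher, 38.8% in all. Both shWNK1 libraries lay below both NS libraries for the 9 tested members, as they did for 33.7% of all tested genes, and 34.7% had both above. Because the genes were picked with this contrast known, nothing is read from these counts. The median log2 fold change of the 9 was -0.48, beside 0.01 for all tested genes. Excluding NS replicate 2, TXNDC11 was called as well, which made 9. In a bulk library, fewer cells expressing a gene and less of its RNA per cell cannot be told apart.

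Per length, the order of the members differed between the groups. In NS cells PDIA4 came first with 185 ± 1.10 CPM per kb (mean ± SD, n = 2), then P4HB with 161 ± 1.97 and PDIA6 with 150 ± 5.21 CPM per kb. After a wide gap came PDIA3 (36.5 ± 1.28), TXNDC11 (31.3 ± 2.63), TMX1 (31.2 ± 0.260), TXNDC5 (28.3 ± 0.358) and ERO1A (27.6 ± 0.369), and PDIA5 had 13.3 ± 0.0947 CPM per kb. TXNDC11 and TMX1 overlapped in this order, and the remaining neighbours did not. In shWNK1 cells P4HB led with 129 ± 0.515 CPM per kb, PDIA6 followed with 121 ± 3.73, and PDIA4 came after both with 40.1 ± 1.97. TXNDC11 had 27.8 ± 0.599 there and PDIA5 9.55 ± 0.203 CPM per kb, while TXNDC5 (19.5 ± 0.0368) lay within the range of TMX1 (18.3 ± 1.75).

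The choice of length changes this order. The divisor was all annotated exon bases of a gene, and the length of the transcripts expressed was not known. In plain CPM P4HB led in NS cells too, at 837 and 851 CPM. PDIA4 (608 and 613) and PDIA6 (599 and 629) overlapped below it. Counted per kb of exon that no other gene shares, PDIA6 led in NS cells with 201 CPM per kb, ahead of PDIA4 (185) and P4HB (179). TXNDC5 came next on that scale in NS cells, with 72.7 CPM per kb. In shWNK1 cells TXNDC5, with 50.01 CPM per unshared kb, stood above PDIA4 (40.1), which it did not when all exon bases were used.

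The makeup of the set followed PDIA4. Summed over the 10 genes, the level was 660 and 669 CPM per kb in NS and 408 and 417 CPM per kb in shWNK1 libraries. PDIA4 made up 27.95% and 27.79% of that sum in NS libraries and 9.48% and 9.96% in shWNK1 libraries. The share of P4HB was 24.2% and 24.3% in NS and 31.6% and 31.1% in shWNK1 libraries, although its own level was lower there. Such shares depend on the length used. Per unshared kb, PDIA4 made up 23.4% and 23.2% in NS and 7.659% and 8.035% in shWNK1 libraries. With PDIA4 left out, the sum over all exon bases was 475 and 483 CPM per kb in NS and 370 and 375 CPM per kb in shWNK1 libraries. The 8 isomerases summed to 23.2 and 23.1 times the level of ERO1A in NS cells and to 16.9 and 18.9 times in shWNK1 cells. These 8 include PDIA4, and the ratio was not computed without it, so nothing about the other isomerases against ERO1A can be read from it.

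**Figure D2:**
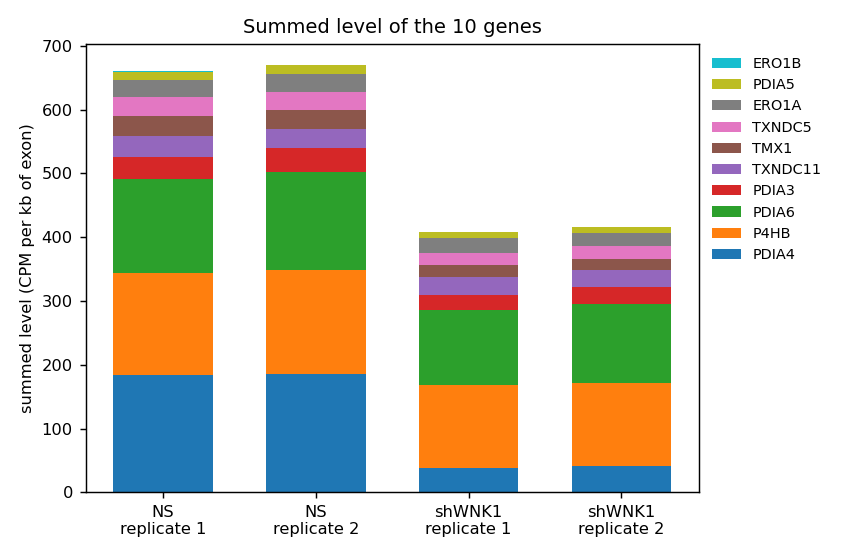
Level of the 10 genes stacked for each library, in CPM per kb of exon, from a baseline of 0. The PDIA4 segment at the base shrinks from 184 and 186 in NS to 38.7 and 41.5 in shWNK1 libraries, and the whole bar from 660 and 669 to 408 and 417.

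The genes most like PDIA4 in their pattern over the 4 libraries were sought by the Euclidean distance of log2 CPM centred on each gene's mean. Candidates were the 4649 tested genes outside the set that averaged 50 CPM or more, so the other members were not compared. The nearest were the nucleic acid-binding translin gene TSN (distance 0.23), the zinc transporter SLC39A6 (0.25), the actin-capping regulator MTPN (0.30), the tropomyosin TPM4 (0.33) and the aldose epimerase GALM (0.35). TSN was at 121 and 118 CPM in NS and 29.6 and 30.7 CPM in shWNK1 libraries, and SLC39A6 was at 147 and 143 against 37.0 and 36.0 CPM. None of the listed PDI relatives outside the set was among the 5, and the members could not be. All 5 held the word AGTATC in the 3′ UTR, beside 23.3% of the genes searched. Among genes with a 3′ UTR of like length, the share was 33.8% for TSN, 12.6% for SLC39A6, 37.9% for MTPN, 21.9% for TPM4 and 15.3% for GALM. The word was taken up because genes lower in shWNK1 cells of these same libraries held it more often. The 5 genes were picked for a fall like that of PDIA4 in these libraries, so nothing is read from their holding it.

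The other genes of the PDI family, a list also drawn up with earlier results known, were changed in part. Of 14 listed, 8 were tested: 3 fell, 0 rose and 5 were not called, with a median log2 fold change of -0.35. Beside this and every list below stand all tested genes, with 20.2% called lower, 18.5% called higher and a median of 0.01. TMX3, a transmembrane relative of TMX1, fell from 147 and 134 to 76.4 and 70.5 CPM (log2 -0.93, SE 0.073, edgeR adjusted p = 5.2e-12). DNAJC10, a reductase that prepares proteins for degradation, fell from 96.0 and 93.2 to 64.8 and 59.0 CPM (log2 -0.61, SE 0.078, edgeR adjusted p = 1.3e-07). ERP44, which retains ERO1 and unfinished antibodies in the early secretory pathway, fell from 71.0 and 62.4 to 50.5 and 49.3 CPM (log2 -0.42, SE 0.087, edgeR adjusted p = 2.2e-04).

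The 5 family genes that were not called spanned both signs. TMX4 was at 88.1 and 87.2 CPM in NS and 95.8 and 95.5 CPM in shWNK1 libraries (log2 0.13, edgeR adjusted p = 0.18). TMX2 had a log2 fold change of -0.04 (edgeR adjusted p = 0.69), ERP29 of -0.10 (0.31; 0.0013 without NS replicate 1), TXNDC12 of -0.27 (0.19; 0.024 without NS replicate 1) and PDIA2, at 0.973 to 1.89 CPM, of -0.66 (0.33). AGR2, AGR3, PDILT, CASQ1 and CASQ2 had 0 counts in all libraries, and ERP27 had at most 0.195 CPM. Among the 8 tested relatives, the word AGTATC was in the 3′ UTR of the 3 that fell and of TMX4. Of tested genes with a 3′ UTR of like length (within 25%), the word was held by 86.05% for DNAJC10, 52.3% for TMX4, 39.6% for ERP44 and 38.6% for TMX3. For the 4 relatives without the word that share was lower, at 0.855% for PDIA2, 7.99% for TMX2, 8.65% for TXNDC12 and 12.3% for ERP29. The word was taken up from genes lower in these same libraries, so nothing is read from which relatives held it.

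**Figure D3:**
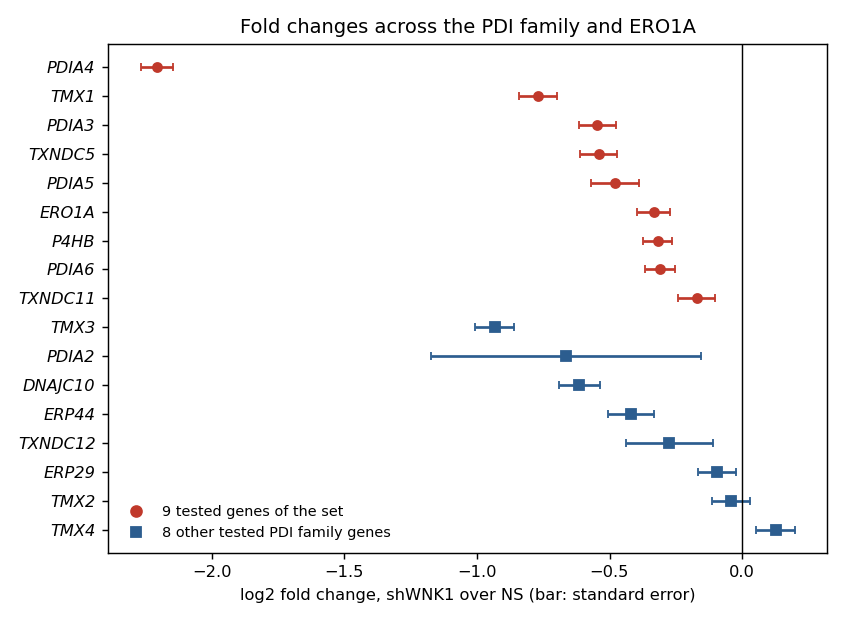
Log2 fold change (shWNK1 over NS) with its standard error for the 9 tested genes of the set (circles) and the 8 other tested PDI family genes (squares). PDIA4 at -2.21 stands apart from the others, which lie between -0.93 and 0.13.

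The list of other ER redox genes holds oxidoreductases and selenoproteins besides the listed PDIs and ERO1, and not all of them feed or relieve the relay. Of 10 tested, 5 fell, 2 rose and 3 were not called (median log2 -0.21). The reductases of vitamin K epoxide, which can also oxidise PDIs, fell: VKORC1 by 0.66 on the log2 scale (edgeR adjusted p = 0.0019) and VKORC1L1 by 0.27 (9.0e-04). The selenoprotein SELENOF, a partner of the glucosyltransferases that check glycoprotein folding, fell by 0.25 (edgeR adjusted p = 0.0021). SELENOS, a membrane selenoprotein of ER-associated degradation, rose by 0.28 (edgeR adjusted p = 0.0032) and the sulfhydryl oxidase QSOX2 by 0.18 (0.033). Falls in this list numbered 1 without shWNK1 replicate 1, 2 without shWNK1 replicate 2 and 3 without NS replicate 2. The QSOX2 call ended under 6 of 11 alternatives, and those of VKORC1 (0.10), SELENOF (0.054) and SELENOS (0.096) without shWNK1 replicate 1, of VKORC1L1 (0.061) and SELENOF (0.075) without shWNK1 replicate 2, and of VKORC1 (0.067) without NS replicate 2.

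Among the chaperones that PDIs work beside, 13 of 18 fell, 2 rose and 3 were not called, with a median log2 fold change of -0.55. HSPA5, the chaperone BiP, was at 1462 and 1431 CPM in NS and 744 and 770 CPM in shWNK1 libraries (log2 -0.93, SE 0.055, edgeR adjusted p = 5.3e-15). MANF, a secreted cofactor of BiP, fell from 72.1 and 87.1 to 35.4 and 36.0 CPM (log2 -1.15, SE 0.093, edgeR adjusted p = 1.3e-11). CALR, calreticulin, the soluble lectin that recruits PDIA3, fell from 1001 and 1076 to 668 and 679 CPM (log2 -0.63, SE 0.057, edgeR adjusted p = 1.2e-10). CANX, its membrane counterpart, chosen after its value was seen, was at 1899 and 1761 against 1671 and 1687 CPM (log2 -0.12, edgeR adjusted p = 0.078; 0.042 with DESeq2 and 8.5e-04 without NS replicate 2). The rises were those of the co-chaperone DNAJB9 (log2 0.40, edgeR adjusted p = 0.012) and of CNPY3 (0.29, 0.022). Neither was called with DESeq2 (0.076 and 0.093), without shWNK1 replicate 1 (0.22 and 0.11) or without NS replicate 1 (0.065 and 0.42).

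PDIs also serve as subunits of other complexes. P4HA1, the main catalytic partner of P4HB in collagen prolyl 4-hydroxylase, fell from 47.7 and 44.7 to 30.1 and 29.1 CPM (log2 -0.64, SE 0.099, edgeR adjusted p = 3.6e-06), while P4HA2 rose from 20.5 and 20.1 to 27.4 and 25.3 CPM (log2 0.37, SE 0.121, edgeR adjusted p = 0.014). The P4HA2 call ended with DESeq2 (0.082) and without shWNK1 replicate 1 (0.17) or replicate 2 (0.057). P4HA3 and the lipid transfer protein MTTP, another partner of P4HB, had at most 0.287 CPM and were not tested. In the complex that loads peptides on MHC class I, where PDIA3 is bound to tapasin, 2 of 5 genes fell, 1 rose and 2 were not called. TAPBP, tapasin itself, fell by 0.43 (edgeR adjusted p = 6.4e-07) and the peptide transporter subunit TAP2 by 0.59 (3.3e-08), whereas TAP1 (log2 -0.03, 0.74) and TAPBPL (0.08, 0.69) were not called. The light chain B2M rose by 0.19 (edgeR adjusted p = 0.0087), and was not called with either shWNK1 library left out (0.24 and 0.091).

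Of 9 sensors and factors of the UPR and related stress, 3 rose, 2 fell and 4 were not called (median log2 0.20). ATF4, the factor translated under stress, rose from 305 and 323 to 407 and 409 CPM (log2 0.38, SE 0.058, edgeR adjusted p = 3.3e-06). PPP1R15A, the phosphatase subunit that ends that response, rose by 0.64 (edgeR adjusted p = 1.1e-04), and HIF1A, the hypoxia factor known to induce ERO1A, by 0.39 (1.5e-05). XBP1, a factor that drives secretory genes in plasma cells, fell by 0.17 (edgeR adjusted p = 0.020) and its activator ERN1 by 0.25 (0.040). Neither fall was called with upper-quartile scaling (0.073 and 0.087) or without either shWNK1 library. The XBP1 call ended under 3 of 11 alternatives. That of ERN1 ended under 6 of 11, among them DESeq2 (0.14) and a replicate block (0.066).

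Cytosolic thiol reduction supplies the reducing side of PDI chemistry. Of 10 genes, 2 rose, 1 fell and 7 were not called (median log2 0.16), beside 18.5% called higher and 20.2% called lower of all tested genes. GCLM, a subunit of the glutathione-making ligase, rose by 0.23 (edgeR adjusted p = 0.0053; 0.12 and 0.056 with either shWNK1 library left out). PGD, an NADPH-producing dehydrogenase, fell by 0.34 (edgeR adjusted p = 2.6e-05). Upper-quartile scaling gave 5 rises in this list, leaving out NS replicate 2 gave 4, and leaving out either shWNK1 library gave 1.

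The disulfide-bonded cargo went both ways. Of 8 tested immunoglobulin constant and joining chain genes, 4 rose, 3 fell and 1 was not called (median log2 0.09). IGKC, the kappa light chain, was the most abundant, at 2627 and 3058 CPM in NS and 3508 and 3340 CPM in shWNK1 libraries (log2 0.27, SE 0.062, edgeR adjusted p = 7.9e-04; 0.063 with DESeq2 and 0.097 without shWNK1 replicate 1). JCHAIN, which joins antibody polymers, rose by 0.25 (edgeR adjusted p = 9.9e-04; 0.13 if shWNK1 replicate 1 was left out). The main heavy chain IGHG1 fell from 539 and 558 to 439 and 481 CPM (log2 -0.25, SE 0.059, edgeR adjusted p = 7.4e-04; 0.15 without shWNK1 replicate 1), beside IGHG3 (-0.59, 2.1e-04) and IGHG4 (-1.45, 1.9e-05), while IGHA1 rose at 0.236 to 1.90 CPM (2.03, 0.0093; 0.26 without shWNK1 replicate 2 and 0.068 without NS replicate 2). Heavy-chain constant genes of the same class, such as IGHG1, IGHG3 and IGHG4, are near-identical copies of each other. Their levels, and the minor ones in particular, are therefore uncertain. With DESeq2 there was 1 rise beside 3 falls, without shWNK1 replicate 1 there was 1 rise beside 2 falls, and rises numbered 2 without shWNK1 replicate 2 or NS replicate 2.

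**Figure D4:**
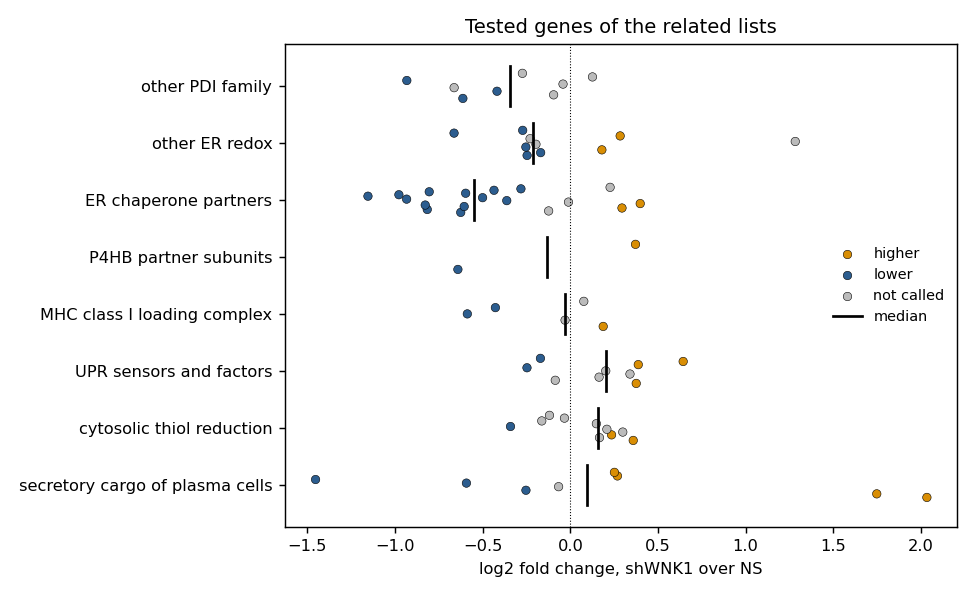
Log2 fold change (shWNK1 over NS) of each tested gene in the 8 related lists, coloured by its call in the edgeR test, with a bar at each list's median. Chaperone partners lie mostly left of 0 (median -0.55), and UPR sensors and factors (0.20) and secretory cargo (0.09) spread over both sides.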

How the data were processed

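The authors deposited raw counts per gene. The submitters' processing notes name Trimmomatic, STAR and hg38. Counts were made with featureCounts v2.0.0 on GENCODE 34, per the file headers: fragments without regard to strand, mapping quality at least 20, both ends mapped, and no request to count reads of several places or genes. A gene broken over 3 lines and 45 pseudoautosomal Y copies (0 counts) were left out. Of 60682 genes, 60369 matched a symbol.

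The main test was that of edgeR 4.0.16 (R 4.3.3): filterByExpr (14864 genes), TMM factors, glmQLFit (robust), glmQLFTest, two-sided, group as the only term, 2 residual degrees of freedom, Benjamini-Hochberg over all tested genes. An SE is the log2 fold change over the root of F. The code was tested on simulated data. CPM per kb divides by all exon bases of the table. Overlaps of exons came from the table's coordinates on either strand.

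The members and lists were chosen with earlier results of these data known. Named in the text by rule were WNK1, the members, the tested PDI relatives, P4HB partner and class I loading genes, up to 3 rising and 3 falling called genes by smallest p of every further list, and the 5 genes nearest to PDIA4 (log2 CPM with a prior count of 2). Alternatives were RLE and upper-quartile factors, DESeq2 1.42.0, no filter, 1 CPM in 2 libraries, a replicate block, a table without immunoglobulin and mitochondrially encoded genes, and leaving out each library. Some items that the rule names are not reported here.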

Additional observations from a re-analysis of the deposited data

How the results depend on the processing

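The members were chosen with this contrast known, so their log2 fold changes under the 11 alternatives are a description and no sign of stability. The range was -2.26 to -2.15 for PDIA4, -0.86 to -0.68 for TMX1, -0.64 to -0.46 for PDIA3 and -0.25 to -0.08 for TXNDC11, the only tested member whose call differed between settings (called with RLE factors and without NS replicate 2). Over all genes, rises numbered 2755 and falls 3005. Upper-quartile factors turned this balance, with 3154 rises and 2672 falls. With DESeq2 there were 1795 rises, and leaving out each library gave 1632 to 2778 rises and 1964 to 3024 falls.

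Depth limits ERO1B, with at most 13 counts. The replicate block gave 2539 rises and 2804 falls over all genes, against 2755 and 3005 in the main test. Among other ER redox genes 1 rise was left, and among UPR factors 1 fall. Same-numbered replicates did not deviate together (correlation over genes of 0.00126), so the numbers are not known to pair the libraries. With DESeq2, rises numbered 1 of other ER redox genes, 0 of chaperone partners, 0 of P4HB partners and 1 of secretory cargo, and falls of UPR factors 1. With upper-quartile factors 5 thiol reduction genes rose and 0 UPR factors fell. With no low-count filter 1 other ER redox gene rose. Leaving out immunoglobulin genes left 1 rise and 0 falls of cargo by construction.

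Leaving out each library gave the following ranges of rises: 0 to 2 of other ER redox genes, 0 to 2 of chaperone partners, 0 to 1 of P4HB partners, 0 to 1 of class I loading genes, 1 to 4 of thiol reduction genes and 1 to 4 of cargo. Falls ranged from 3 to 5 for other PDI family genes, 1 to 5 for other ER redox genes, 0 to 2 for UPR factors and 1 to 2 for thiol reduction genes. The cause was not tested. Of 758 values of the 70 tested list genes under these alternatives, 692 kept their call, 53 lost it, 13 gained one and 0 changed sign while called.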
